A study of Ipomoea batatas with 12 samples.

Results

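Metallothioneins are small proteins rich in cysteine whose thiol groups bind copper, zinc and cadmium. Plants carry several types that differ in how the cysteines are spaced. In Arabidopsis, type 1 and type 2 members bind copper and are transcribed strongly in vascular tissue, and both are known for buffering metals and limiting oxidative damage. The metallothionein genes of sweetpotato (Ipomoea batatas) roots are described here. A gene was taken as a member when its deposited description contained the word metallothionein, which gave 6 genes of the 45142 in the table. The family was chosen by the abundance of 1 member, g48449, in the WT libraries, so the WT levels of g48449 are a description and were not tested.

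RNA was sequenced from roots of plants that overexpress the MADS-box gene MBP3 (MBP3-OE) and of WT plants of the cultivar Taizhong 6, grown in a greenhouse. MBP3-OE had 3 libraries, numbered 2, 3 and 8, at each of 20 days, 1 month and 4 months, and WT had 1 library per age. What the numbers 2, 3 and 8 stand for (transgenic lines, plants or pools) is not given in the sources used here, nor is the promoter of the transgene, so p-values reflect the spread among these libraries alone. The labels name the middle age 1 month, whereas the series text places developing tuberous roots at 60 days after planting, with fibrous roots at 20 days and mature tuberous roots at 120 days.

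The deposited counts summed to between 39424503 and 58486728 per library, and whether they count reads or fragments, or a read more than once, is not given in the sources used here. The genes g4107 and g4109 are both described as MBP3, and which of them takes up transgene reads is not known. In MBP3-OE g4107 had 67.3 to 78.4 FPKM (fragments normalised to gene length and library size) at 20 days, between 29.7 and 58.3 FPKM at 1 month, and 55.8 to 121 FPKM in the oldest roots. The WT libraries of those ages had 15.3, 23.2 and 83.2 FPKM. For g4109 the MBP3-OE values were 36.0 to 40.8, then 16.6 to 29.7, then 27.9 to 65.9 FPKM, against 7.38, 10.5 and 40.9 FPKM in WT. The library labelled WT at 4 months therefore lay inside the MBP3-OE range for both genes. Every 4-month WT value given here is that of the library with this label. Sporamin, the storage protein that marks tuberous root tissue, summed over 42 genes to 495 to 1205, then 3227 to 13340, then 65836 to 136157 FPKM in MBP3-OE with age, and to 183, 2203 and 91502 FPKM in WT. Chlorophyll a-b binding genes (19 genes), which mark green tissue, summed to 67.5 to 157, 209 to 901 and 3651 to 7456 FPKM in MBP3-OE, against 58.7, 149 and 448 FPKM in WT, with 18 or 19 of them detected in every library. Inorganic phosphate transporter 1 genes (9 genes), which mark the absorbing root surface, summed to 200 to 257, 65.6 to 98.8 and 3.74 to 20.2 FPKM in MBP3-OE, and to 349, 142 and 18.9 FPKM in WT, with 4 genes detected in each MBP3-OE library at 4 months. The 2 markers of dividing cells went opposite ways. Histone H3 (5 genes) summed to 272 to 337 FPKM in MBP3-OE at 20 days and 90.0 to 155 FPKM at 4 months, with 241 and 67.5 FPKM in WT. Cyclin-B (2 genes) summed to 11.2 to 16.1 and 27.5 to 53.7 FPKM, with 18.6 and 52.4 FPKM in WT. In bulk roots, a smaller share of cells of a type and less RNA per cell cannot be told apart. The part of these markers in the results below was not tested.

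The 6 members were a type 1 gene, g48449, a pair of type 2 genes, g4909 and g17882, and 3 genes described only as metallothionein-like, g64044, g64047 and g10016. In the coordinates of the deposited table, whose genome build was not named, g48449 lay on linkage group 12 (11664255 to 11667282, minus strand), g4909 on linkage group 2 (4831587 to 4832572, plus strand) and g17882 on linkage group 5 (8826231 to 8830720, plus strand). The genes g64044 (30277721 to 30279138) and g64047 (30292841 to 30294158) were neighbours on the minus strand of linkage group 15, separated by 13702 bp that held 1 other gene of the table, and g10016 lay on linkage group 3 (4027575 to 4029010, plus strand). Only the neighbours carried gene ontology terms, which were the same for both and named copper ion binding, zinc ion binding and copper homeostasis. Reads from near-identical copies may have been divided between members, so single values of the neighbours are uncertain to that extent. On the per-length FPKM scale the mean levels over the 12 libraries were 7380 for g48449, 891 for g4909, 544 for g64047, 277 for g64044, 160 for g10016 and 0.15 for g17882. A filter on the mean (0.5 FPKM or more) passed 28065 genes, among them every member except g17882, and no tested member fell below 4.89 FPKM in any library.

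**Figure D1:**
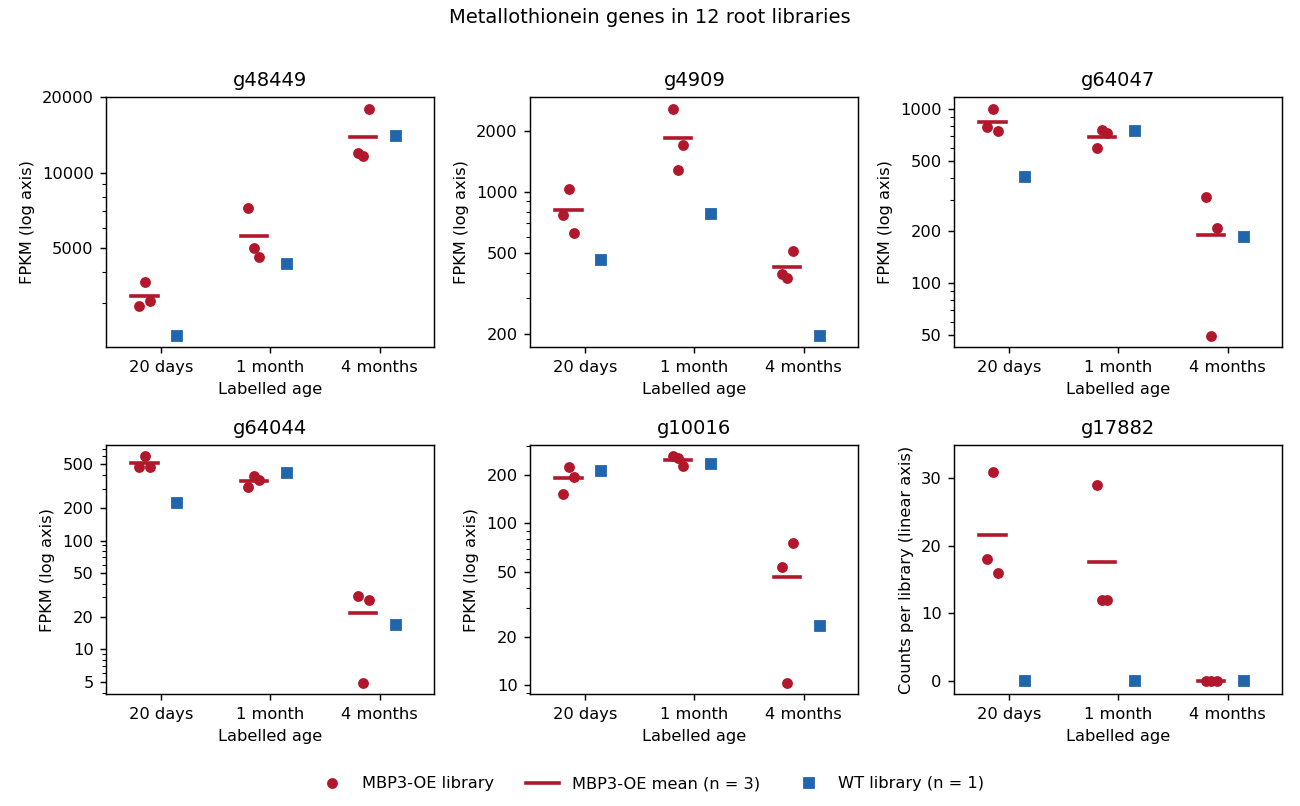
FPKM (log axis) of the 5 tested metallothionein genes, and counts (linear axis) of g17882, by labelled age. Circles are MBP3-OE libraries with their mean as a bar (n = 3), squares the single WT libraries. g48449 reached 11657 to 18055 FPKM in MBP3-OE at 4 months, while g64044 stood at 4.89 to 31.1 FPKM there.

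Metallothionein transcripts took a larger share of the root library at each later age, and g48449 held most of that share. The 6 genes held 0.442, 0.566 and 0.449% of all counts in MBP3-OE at 20 days, 1.01, 0.681 and 0.665% at 1 month, and 1.295, 1.256 and 1.933% at 4 months. The means were 0.486 ± 0.070%, 0.785 ± 0.194% and 1.50 ± 0.38% (SD, n = 3 each), and the 3 ages did not overlap. The WT libraries held 0.314% (95% Wilson interval 0.313 to 0.316), 0.581% (0.579 to 0.583) and 1.47% (1.470 to 1.476), intervals that cover counting error only and take each count as a separate molecule, which the unknown unit of the counts does not assure. With g48449 left out, the family held 0.157%, 0.215% and 0.0481% of counts on average in MBP3-OE at the 3 ages, and 0.0884%, 0.145% and 0.0284% in WT. The other members were thus lowest at 4 months in both genotypes.

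Expression of g48449, the type 1 gene, was among the 5 highest of all genes in each of the 12 libraries by FPKM, and it ranked first in all 3 MBP3-OE libraries at 1 month. It stood at 2925, 3627 and 3068 FPKM in MBP3-OE at 20 days, 7224, 4969 and 4575 FPKM at 1 month, and 11949, 11657 and 18055 FPKM at 4 months. The WT libraries stood at 2221, 4291 and 13996 FPKM. Each MBP3-OE age lay wholly above the one before it, and libraries 2 at 1 month and 8 at 4 months were the high ones of their ages. Age differences were tested with edgeR's quasi-likelihood test on the counts of all 12 libraries, and a gene passed with a Benjamini-Hochberg adjusted p under 0.05 over all genes tested and a change of at least 1 on the log2 scale. At 4 months g48449 had risen by 2.41 ± 0.35 (log2, SE) over 20 days (edgeR adjusted p = 0.00098) and by 1.67 ± 0.35 over 1 month (edgeR adjusted p = 0.0125). Both calls held under each of the 15 alternatives run. That against 1 month came close to the threshold, with an edgeR adjusted p of 0.048 without library 8 at 1 month. Between 1 month and 20 days the difference was 0.74 ± 0.34 on the log2 scale and missed the threshold (edgeR adjusted p = 0.18).

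The type 2 gene g4909, the second most abundant member, peaked at the middle age. It stood at 770, 1037 and 626 FPKM in MBP3-OE at 20 days, 2567, 1276 and 1694 FPKM at 1 month, and 395, 379 and 511 FPKM at 4 months. The WT libraries stood at 465, 781 and 197 FPKM, with the same order of ages. In MBP3-OE no 2 ages overlapped in FPKM, although library 3 at 1 month came close to library 3 at 20 days. On the counts as scaled for the edgeR test 4 months overlapped with 20 days, with library 8 at 4 months just above library 8 at 20 days. The gene fell by 1.76 ± 0.34 (log2, SE) at 4 months against 1 month (edgeR adjusted p = 0.0105), a call kept under all 15 alternatives. The difference between 1 month and 20 days was 1.13 ± 0.34 with an edgeR adjusted p of 0.060. DESeq2 called it (adjusted p = 0.011), as did limma on log2(FPKM + 1) (adjusted p = 0.037) and edgeR without MBP3-OE library 3 at 1 month (adjusted p = 0.042). Between 4 months and 20 days the difference was -0.63 ± 0.33 (edgeR adjusted p = 0.15).

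The other type 2 gene, g17882, had few counts and was the one member detected in some libraries and not in others. It had 18, 31 and 16 counts in MBP3-OE at 20 days, 29, 12 and 12 counts at 1 month, and 0 counts in all 3 libraries at 4 months. The 3 WT libraries had 0 counts each. Detection was thus limited to the 6 younger MBP3-OE libraries. Against the limit that 0 counts allows (3 counts over the group), the observed pooled rate was at least 19.1-fold higher at 20 days and at least 14.3-fold higher at 1 month than at 4 months. Against the same limit in the WT library of the same age it was at least 6.01-fold higher in MBP3-OE at 20 days and at least 5.89-fold higher at 1 month. These ratios set an observed rate against a limit that covers counting error only, not the spread between plants, and for WT they rest on 1 library per age. The gene stayed below 0.5 FPKM in every library and was outside the tested set. In the alternative with no filter, edgeR called it lower in MBP3-OE at 4 months against 1 month.

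The neighbours g64044 and g64047 were both low at 4 months, to different depths, while at 1 month WT stood above its 20-day value for each. The gene g64044 stood at 475, 598 and 471 FPKM in MBP3-OE at 20 days, 312, 394 and 358 FPKM at 1 month, and 31.1, 4.89 and 28.1 FPKM at 4 months, with 221, 413 and 16.9 FPKM in WT. The 4-month libraries of both genotypes lay far below all younger ones. The log2 change was -4.25 ± 0.64 at 4 months against 20 days (edgeR adjusted p = 0.0011) and -3.63 ± 0.62 against 1 month (edgeR adjusted p = 0.0072), each call kept under all 15 alternatives. This was the largest change of any tested member.

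Its partner g64047 stood at 786, 1005 and 748 FPKM in MBP3-OE at 20 days, 594, 755 and 724 FPKM at 1 month, and 312, 49.9 and 208 FPKM at 4 months, with 406, 751 and 184 FPKM in WT. Library 3 was the lowest of the MBP3-OE libraries at 4 months for both neighbours. Among the MBP3-OE libraries of that age it had the lowest sporamin sum and the highest phosphate transporter 1 sum (20.2 FPKM). A link of these markers to the neighbours was not tested. At 4 months against 20 days g64047 fell by 1.81 ± 0.57 on the log2 scale (edgeR adjusted p = 0.029). It was lost without any 1 of the 3 MBP3-OE libraries at 20 days, or without library 8 at 4 months, at edgeR adjusted p values of 0.055 to 0.079. Against 1 month the difference was -1.44 ± 0.56 (edgeR adjusted p = 0.094), which DESeq2 called (adjusted p = 0.028), limma called (adjusted p = 0.016 on log2(FPKM + 1)) and edgeR called without library 2 at 4 months (adjusted p = 0.044). At 1 month against 20 days the differences were -0.62 ± 0.56 for g64044 and -0.37 ± 0.55 for g64047, with edgeR adjusted p values of 0.50 and 0.69.

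The ratio of g64047 to g64044 kept to a narrow range in young roots and was several times larger in the oldest ones. On the FPKM scale it was 1.655, 1.681 and 1.587 in MBP3-OE at 20 days, 1.905, 1.917 and 2.026 at 1 month, and 10.01, 10.20 and 7.413 at 4 months, against 1.84, 1.82 and 10.9 in WT at the same ages. Library 3 at 4 months, which had the lowest level of both genes, did not stand apart in their ratio. Over the 12 libraries log2(FPKM + 1) of the neighbours had a Pearson r of 0.96, and both had negative r with g48449 (-0.83 for g64044 and -0.71 for g64047). These values describe libraries that share 3 ages.

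**Figure D2:**
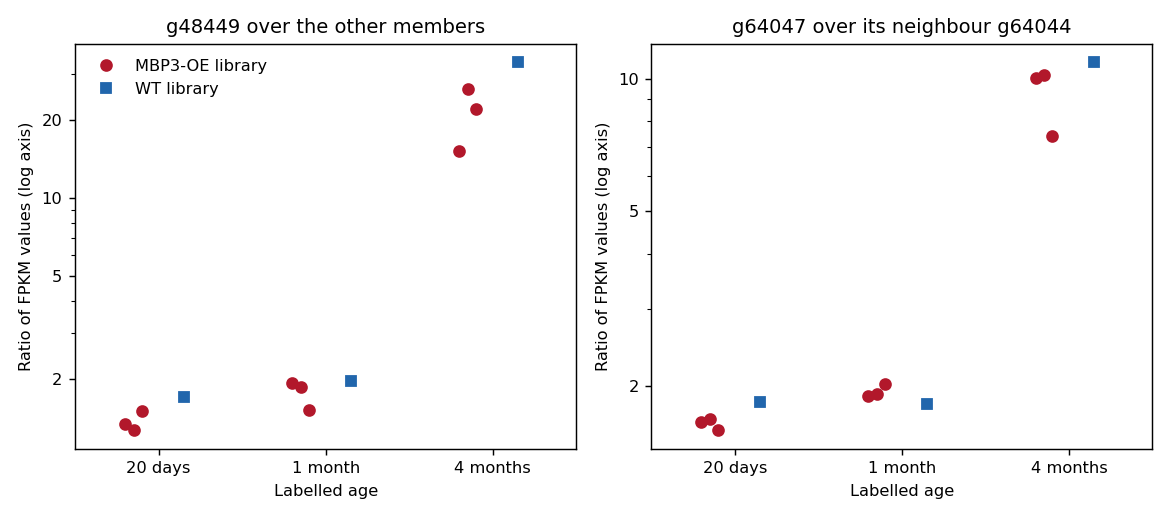
Ratios of FPKM values (log axes) by labelled age, for g48449 over the sum of the other members (left) and for g64047 over its neighbour g64044 (right). Circles are MBP3-OE libraries and squares WT libraries. At 4 months the left ratio was 15.1 to 26.3 in MBP3-OE and 33.3 in WT, and the right ratio 7.41 to 10.2 in MBP3-OE and 10.9 in WT.

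The remaining member, g10016, was also low at 4 months. It stood at 153, 222 and 194 FPKM in MBP3-OE at 20 days, 261, 254 and 226 FPKM at 1 month, and 54.2, 10.3 and 75.6 FPKM at 4 months, with 210, 232 and 23.2 FPKM in WT. The 4-month libraries of both genotypes did not overlap with any younger one, and MBP3-OE library 3 was again the lowest. The gene fell at 4 months, with a log2 change of -1.99 ± 0.61 against 1 month (edgeR adjusted p = 0.046) and of -1.69 ± 0.60 against 20 days (edgeR adjusted p = 0.047). Both calls lay close to the threshold. Each was lost without any 1 of the 3 libraries at 20 days, the 3 at 1 month, or library 2 at 4 months, with edgeR adjusted p values of up to 0.088 and 0.115. The 20-day libraries are no part of the comparison with 1 month. Without any 1 of them its log2 change stayed at -1.99, and only the edgeR adjusted p moved, to between 0.067 and 0.073. In FPKM all 3 MBP3-OE libraries at 1 month lay above all 3 at 20 days. On the counts as scaled for the edgeR test these ages overlapped, with library 8 at 1 month below library 3 at 20 days. The log2 difference between them was 0.30 ± 0.59 and did not pass (edgeR adjusted p = 0.77).

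Across the 5 tested members, 4 months against 20 days gave 1 higher and 3 lower, beside 17.5% of all genes tested that were higher and 17.8% that were lower. At 4 months against 1 month 1 was higher and 3 were lower, beside 7.48% and 9.56% of all genes. At 1 month against 20 days edgeR called 0 of 5, with 1 member at an unadjusted p under 0.05, beside 5.7% of all genes higher and 3.49% lower. DESeq2 and limma each called 1 member there, g4909. The median log2 change of the members was -1.69 at 4 months against 20 days and -1.76 against 1 month, beside 0.02 and -0.01 over all genes tested.

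**Figure D3:**
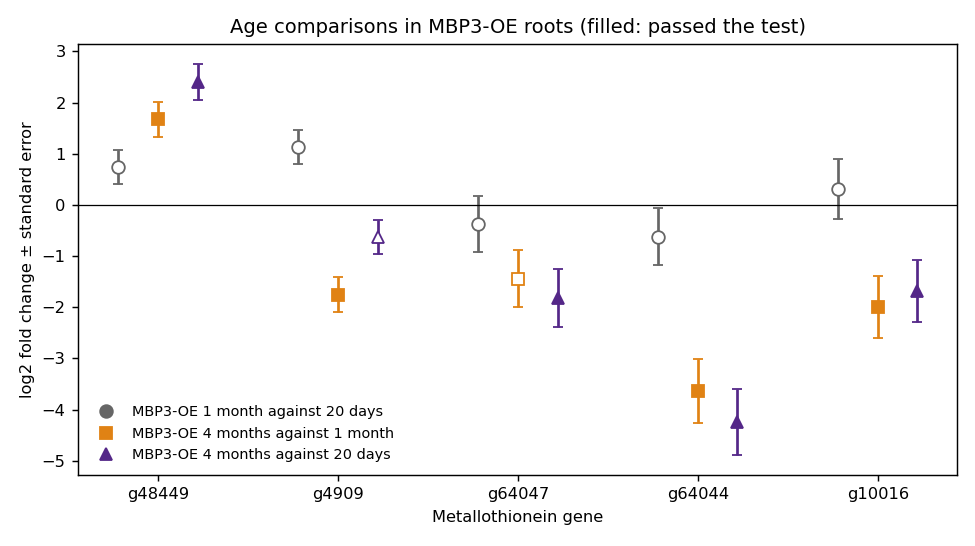
Log2 fold changes with standard errors from edgeR for the 5 tested metallothionein genes in the 3 age comparisons within MBP3-OE (3 libraries per age); filled symbols passed the test. g48449 is the only member above 0 at 4 months against 20 days (2.41), and g64044 has the lowest value (-4.25).

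These opposite movements changed the make-up of the family's transcripts. In MBP3-OE g48449 took between 55.9 and 60.1% of the summed metallothionein FPKM at 20 days, between 60.4 and 65.9% at 1 month, and between 93.8 and 96.3% at 4 months. In the WT libraries it took 63.0, 66.3 and 97.1%. At 20 days the type 1 gene was thus 1.27 to 1.50 times the sum of the other members in MBP3-OE and 1.71 times in WT. At 4 months it was 15.1 to 26.3 times that sum in MBP3-OE and 33.3 times in WT. Set against the type 2 gene g4909 alone, g48449 was 3.50 to 4.90 times as abundant per length in MBP3-OE at 20 days, between 2.70 and 3.89 times at 1 month, and between 30.3 and 35.4 times at 4 months, against 4.78, 5.50 and 71.1 times in WT.

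**Figure D4:**
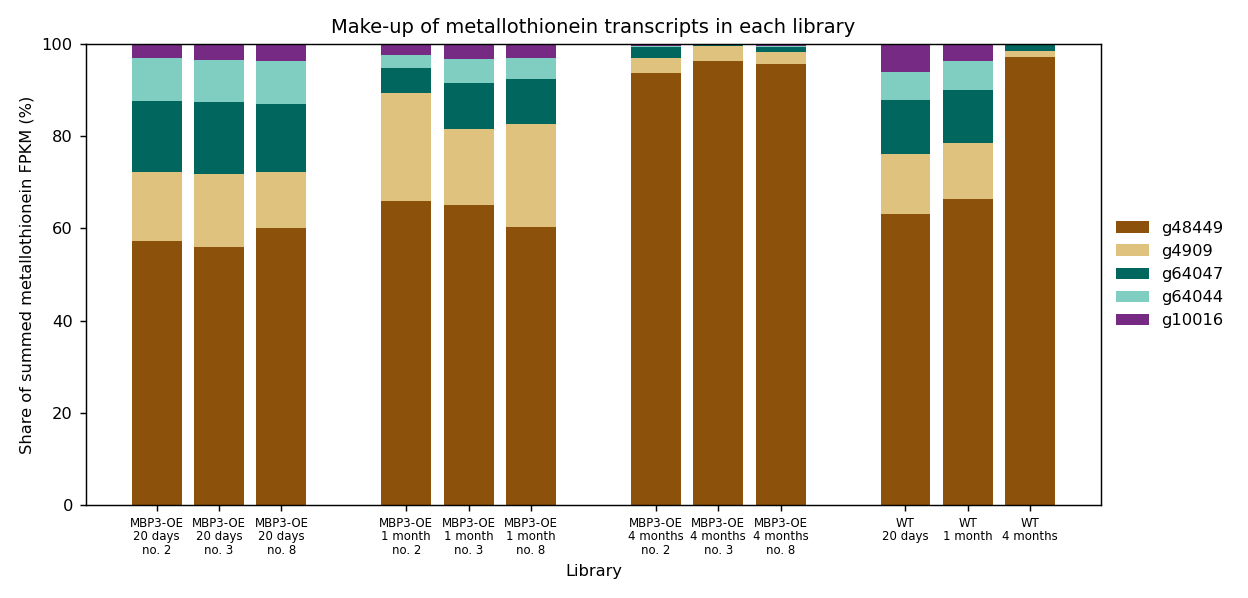
Share of the summed metallothionein FPKM (%) taken by each of 5 genes in each library, with MBP3-OE libraries on the left and WT libraries on the right. g17882, at a mean of 0.15 FPKM, is too small to draw. g48449 fills 93.8 to 97.1% of each 4-month bar.

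Whether overexpression of MBP3 went with another metallothionein level was asked of the 4 tested members other than g48449. With 1 WT library per age, the spread came from MBP3-OE alone. Averaged over the 3 ages, edgeR called 0 of the 4, with 1 at an unadjusted p under 0.05, beside 0.164% of all genes called in either direction. DESeq2 called 1 and limma on log2(FPKM + 1) called 0. The member under 0.05 was g4909, with a log2 difference of 1.05 ± 0.29 (unadjusted p = 0.0057, edgeR adjusted p = 0.13), which DESeq2 called (adjusted p = 0.0084). Its values lay at 626 to 1037 FPKM in MBP3-OE against 465 FPKM in WT at 20 days, 1276 to 2567 against 781 FPKM at 1 month, and 379 to 511 against 197 FPKM at 4 months. The WT library was below all 3 MBP3-OE libraries at every age for this gene alone among these 4, as for 4.66% of all genes tested. The average differences of the others were 0.45 ± 0.47 for g64044, 0.34 ± 0.46 for g64047 and 0.33 ± 0.49 for g10016, with edgeR adjusted p values of 0.69 to 0.80.

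By age, the WT library lay below every MBP3-OE library for 3 of these 4 members at 20 days, where 42.9% of all genes did so. The exception was g10016, at 210 FPKM in WT within 153 to 222 FPKM in MBP3-OE. At 1 month WT lay below for 1, g4909, beside 30.0% of all genes, and above for 1, g64044, beside 26.5%. At 4 months the library labelled WT lay below for g4909 only among the 4, beside 21.6% of all genes. Whether the age change itself differed between genotypes was tested as an interaction. For 4 months against 20 days edgeR called 0 of 4 members, beside 0% of all genes. For 1 month against 20 days, a contrast added after seeing the data, it also called 0 of 4, beside 0% of all genes. In both, 0 of 4 had an unadjusted p under 0.05, and DESeq2 and limma called 0. The widest of these differences, for g10016 at 4 months, was 1.39 ± 1.19 on the log2 scale, so that a difference of several fold could not be detected with these libraries.

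To place the family among genes of related function, 202 other metal-handling genes were gathered by words in their descriptions, in 14 classes with matches, and phytochelatin synthase matched none. Of the 162 tested, 35 were higher and 28 lower in MBP3-OE at 4 months against 20 days, where 17.5% and 17.8% of all genes were. At 4 months against 1 month 18 were higher and 17 lower, beside 7.48% and 9.56% of all genes, and at 1 month against 20 days 16 and 6, beside 5.7% and 3.49%. In the order of these 3 comparisons, DESeq2 gave 34 and 36, then 20 and 26, then 24 and 8. With limma on log2(FPKM + 1) the counts were 26 and 36, then 10 and 27, then 18 and 9. The shares of all genes are from edgeR, and those of DESeq2 and limma are not given here. The edgeR median log2 changes of the metal-handling genes were -0.15, -0.07 and 0.12, beside 0.02, -0.01 and 0.03 over all genes tested. With limma these medians were -0.31, -0.35 and 0.11, beside -0.20, -0.27 and 0.07 over all genes, so the limma counts include a shift that all genes shared.

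Of the 14 classes, 8 had genes called in both directions at 4 months against 20 days. Of 59 tested heavy metal-associated isoprenylated plant proteins (HIPPs), a large family with a metal-binding domain, 15 rose and 16 fell in that comparison. The HIPP26-like gene g34001 rose in all 3 age comparisons, with 35.4 to 47.8 FPKM in MBP3-OE at 20 days, between 84.97 and 228 FPKM at 1 month, and between 204 and 436 FPKM at 4 months, and a log2 change of 3.18 ± 0.47 over the whole interval (edgeR adjusted p = 0.00099). WT stood at 17.8, 41.1 and 269 FPKM for this gene, an order of ages like that of g48449. Metal tolerance proteins, which move zinc or manganese into compartments, had 3 higher and 1 lower of 14. The MTP1-like gene g35015 fell by 1.15 ± 0.28 at 1 month against 20 days and was higher by 1.37 ± 0.28 at 4 months against 1 month (edgeR adjusted p = 0.033 and 0.013).

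Superoxide dismutases, enzymes that remove superoxide and include copper and zinc forms, had 5 higher and 0 lower of 7 at 4 months against 20 days. At 1 month against 20 days they had 3 and 0. The edgeR shares of all genes were 17.5% and 17.8%, then 5.7% and 3.49%. The chaperones that load copper into these enzymes were counted as copper chaperones. For 4 months against 20 days median-ratio scaling, DESeq2 and limma on log2(FPKM + 1) each gave 4 and 0. With limma at a pseudocount of 0.1 it was 4 and 1. The cytosolic copper/zinc gene g13380 stood at 193 to 247 FPKM in MBP3-OE at 20 days, between 340 and 354 FPKM at 1 month, and between 302 and 486 FPKM at 4 months, with 164, 239 and 424 FPKM in WT. It was higher at 4 months than at 20 days by 1.04 ± 0.24 on the log2 scale (edgeR adjusted p = 0.0075). That change lay just above the cut of 1 that a call needed. Copper transporters had 3 higher and 0 lower of 10. Heavy metal ATPases, pumps for copper or zinc, had 2 higher and 0 lower of 13 with edgeR, but 0 and 1 with limma on log2(FPKM + 1).

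Genes of metal uptake and chelation moved in both directions. The single tested nicotianamine synthase gene, g23346, which makes the metal chelator nicotianamine, stood at 17.6 to 20.8 FPKM in MBP3-OE at 20 days, between 5.01 and 20.9 FPKM at 1 month, and between 0.29 and 0.39 FPKM at 4 months, with 37.2, 12.4 and 0.25 FPKM in WT. Its log2 change over the whole interval was -5.47 ± 0.49 (edgeR adjusted p = 0.00015). YSL transporters carry metals bound to nicotianamine. The most abundant of several genes described as YSL7, g16883, fell by 5.60 ± 0.99 (edgeR adjusted p = 0.0022), whereas YSL6 (g17675) rose by 1.46 ± 0.17 (edgeR adjusted p = 0.00038). In MBP3-OE g16883 had 15.6 to 25.6 FPKM at 20 days and 0.02 to 0.81 FPKM at 4 months, with 117 and 0.22 FPKM in WT. The Nramp6-like gene g51734, of a class of divalent metal transporters, fell by 3.60 ± 0.35 (edgeR adjusted p = 0.00019), with 121 to 218 FPKM in MBP3-OE at 20 days and 8.80 to 13.2 FPKM at 4 months. Of 4 ferric reductases tested 2 were higher and 1 lower over that interval. The lower one, FRO2-like (g56750), the most abundant of the class, fell by 1.84 ± 0.35 (edgeR adjusted p = 0.0033), and the zinc transporter 8-like gene g60752 fell by 2.39 ± 0.85 (edgeR adjusted p = 0.046). The iron storage genes of the ferritin class named by abundance, g58844 and g24502, varied widely between libraries of 1 age. They stood at 31.0 to 191 FPKM and 21.5 to 156 FPKM in MBP3-OE at 1 month, and passed in no age comparison with edgeR. Of the 6 ferritins tested, edgeR called 0 higher and 1 lower at 4 months against 1 month. DESeq2 gave 0 and 4, and limma on log2(FPKM + 1) 0 and 2. At 4 months against 20 days each of these tools gave 1 and 2.

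**Figure D5:**
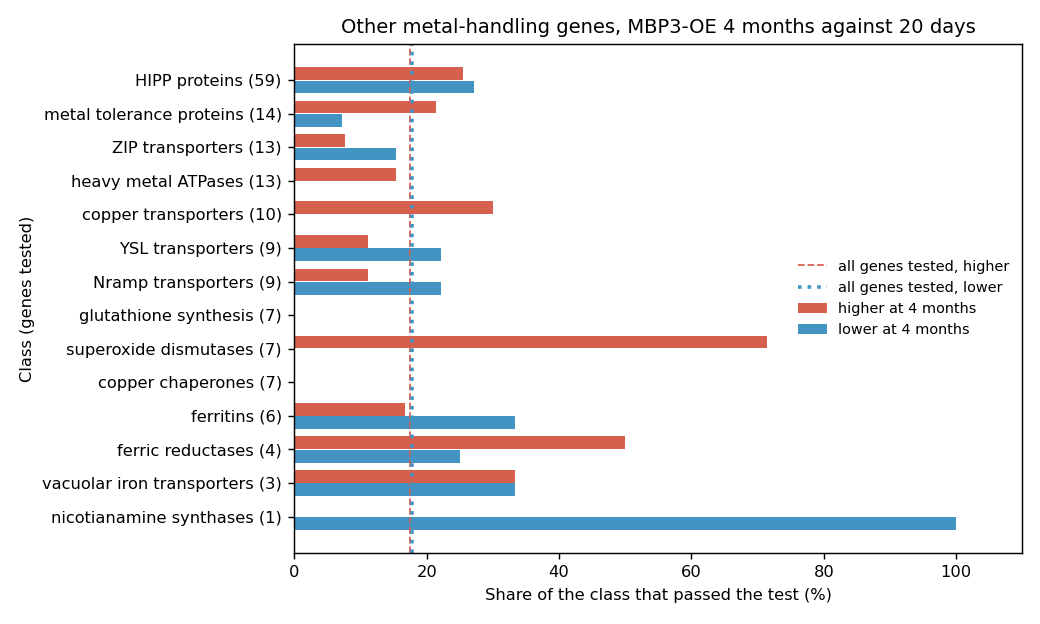
Share (%) of the tested genes of each metal-handling class that passed the edgeR test in MBP3-OE at 4 months against 20 days, higher or lower, with the number tested in brackets. Vertical lines mark the shares over all genes tested, 17.5% higher and 17.8% lower. Superoxide dismutases had 5 of 7 higher and 0 lower, and HIPP proteins 15 and 16 of 59; classes of 1 to 4 genes give coarse shares.

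Genes with a pattern like that of g48449 were sought by the Pearson r of log2(FPKM + 1) over the 12 libraries, among 9432 described genes whose mean reached 10 FPKM. The r was at least 0.95 for 102 of them, in libraries that share 3 ages. The 5 highest were an uncharacterized gene, g16688 (r = 0.989), 4-hydroxy-3-methylbut-2-enyl diphosphate reductase (g43167, 0.986), the last enzyme of the plastid isoprenoid precursor pathway, a malonyltransferase-like gene (g21425, 0.981), an E3 ubiquitin ligase-like gene (g1234, 0.981) and non-symbiotic hemoglobin 2 (g60867, 0.981), an oxygen-binding protein. The reductase stood at 20.5 to 22.6, 32.2 to 39.8 and 59.2 to 84.0 FPKM in MBP3-OE at the 3 ages. Hemoglobin 2 stood at 3.24 to 3.98, 6.58 to 9.31 and 15.5 to 29.9 FPKM there. With Spearman's rank correlation in place of Pearson's, 0 of these 5 stayed among the highest 5, although their own Spearman values were 0.972 to 0.986.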

How the data were processed

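Per the labels and the study's methods, the authors used cutadapt 1.9 for trimming, HISAT2 2.0.4 for alignment and StringTie 1.3.4d for assembly and quantification; the genome build was not given in the sources used here. The deposited table holds counts and FPKM per gene. Counts were tested with edgeR 4.0.16 (TMM scaling, quasi-likelihood, 6 means of genotype and age, 12 libraries) in R 4.3.3 where a gene's mean FPKM was 0.5 or more, and SEs were taken as the log2 change over the root of F. Calls needed an adjusted p under 0.05 and an absolute log2 change of at least 1. The fitting was tested on simulated data. Alternatives were median-ratio scaling, no filter, DESeq2 1.42.0, limma 3.58.1 on log2 of the authors' FPKM plus 1 or 0.1, a replicate block and each library left out. Members were all genes described as metallothionein. In each metal-handling class the 2 most abundant genes could be named, and the 5 genes most like g48449 by Pearson r. Members and lists were chosen with earlier results of these data known.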

Additional observations from a re-analysis of the deposited data

How the results depend on the processing

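Of 381 alternative values of the members' log2 changes, 351 kept their direction and side of the threshold, 20 lost the call, 9 gained it and 1 reversed. The reversed value was g10016 in MBP3-OE against WT, whose log2 difference over 3 ages was 0.33. With single libraries left out it ranged between -0.079 and 0.59, lowest without the WT library of 4 months. Where a WT library was left out, its age dropped out of the average. The lowest value is thus an average over 20 days and 1 month, not a second estimate over 3 ages. At 1 month against 20 days the count of metallothionein calls, 0, was 1 with DESeq2, 1 with limma at either pseudocount, and 0 to 1 with single libraries left out. At 4 months against 20 days the 4 calls were 2 to 4 with single libraries left out, 2 without any 1 library of 20 days. For MBP3-OE against WT DESeq2 gave 1. Metal-handling calls at 1 month against 20 days, 22, were 13 with the replicate block and 7 to 29 with single libraries left out. At 4 months against 1 month the 35 were 23 to 39, lowest without library 8 of 1 month. For MBP3-OE against WT, edgeR gave 0, beside 0.164% of all genes, and 30 at an unadjusted p under 0.05. DESeq2 gave 5 and limma 1. The share of all genes under the unadjusted cut, or called by DESeq2 or limma, is not given here. These counts therefore do not set metal-handling genes apart from others.

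Shares of summed FPKM, in place of counts, were 1.12, 1.77 and 2.81% in MBP3-OE and 0.718, 1.32 and 2.85% in WT by age. Without g48449 the count shares were 0.157, 0.215 and 0.0481% in MBP3-OE and 0.0884, 0.145 and 0.0284% in WT. The genes most like g48449 kept 0 of 5 places under Spearman's rank, with Spearman values of 0.972 to 0.986.

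Same-numbered MBP3-OE libraries did not deviate together (9 pairs, r -0.10 to 0.13), so the numbers were not taken as pairs. With the replicate block g10016 lost its calls at 4 months against 1 month and 20 days (edgeR adjusted p = 0.065 and 0.060). With limma on log2(FPKM + 1) the median log2 change of all genes was -0.27 at 4 months against 1 month and -0.20 against 20 days, beside -0.01 and 0.02 with edgeR. Spread rose with age (common coefficient of variation 0.23, 0.40 and 0.50), 1 shared dispersion trend was fitted, and WT rests on 1 library per age.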

Other observations

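The HIPP5-like gene g63816, the second most abundant HIPP, took a different course in the 2 genotypes. It stood at 133, 124 and 149 FPKM in MBP3-OE at 20 days, 105, 80.6 and 72.7 FPKM at 1 month and 103, 175 and 198 FPKM at 4 months, against 401, 156 and 46.1 FPKM in WT. The WT value was above all MBP3-OE libraries at the first 2 ages and below them at 4 months. The difference between the age changes (4 months against 20 days) was 3.51 ± 0.56 on the log2 scale, with an edgeR adjusted p of 0.12. It was called by DESeq2 (adjusted p = 5.9e-07) and limma on log2(FPKM + 1) (adjusted p = 0.046) but by none of the other 9 of the 11 alternatives, and it rests on 1 WT library at each age. This gene was singled out after its values were seen.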
